A study of Homo sapiens with 4 samples.

Results

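The genes described here are the platelet-derived growth factor (PDGF) receptors and ligands: PDGFRA, PDGFRB, the receptor-like PDGFRL, PDGFA, PDGFB, PDGFC and PDGFD. They are 7 of the 58174 genes in the deposited tables, found by matching gene identifiers to these symbols in GENCODE release 29, and all 7 passed the filter on low counts. The family was picked with a rise of PDGFRB between the genotypes already known, so the PDGFRB values are given as a description with no test. The samples were 4 RNA-seq libraries of 293FT cells, a human embryonic kidney line that carries the SV40 large T antigen: 2 labelled NIPBLmut and 2 labelled NIPBLwt. NIPBL encodes the protein that loads cohesin onto chromosomes, and the study concerns Cornelia de Lange and CHOPS syndromes. The labels name neither the mutation nor the number of clones, and do not say that replicates were separate cultures, so the p-values cover only the variation among these 4 libraries, and that may be technical. For the members other than PDGFRB, adjusted p-values come from the fit of the whole table, and they support nothing about the choice of the family.

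PDGF ligands are secreted dimers that bind and pair the receptor tyrosine kinases PDGFRA and PDGFRB, which then dock adaptors that feed the RAS, PI3 kinase and phospholipase C routes. Dimers of PDGFA or PDGFC act mainly through PDGFRA, those of PDGFB through both receptors, and those of PDGFD mainly through PDGFRB. PDGFC and PDGFD are secreted in a latent form that a protease must cut. In kidney, PDGFRB marks mesangial, interstitial and mural cells, which surround vessels and support the glomerulus.

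The promoters of PDGFRB, the gene the family was picked for, and of PDGFD, the member called higher, are shown with that of PDGFRA, the other receptor, whose level overlapped between the genotypes. Each line gives the 250 bases before a RefSeq start (GRCh38.p14), 5′ to 3′ on the gene's strand, and capitals mark every match to CCAAT or GGGCGG on either strand. PDGFRB lies at chr5:150155846-150156095 (minus strand), PDGFD at chr11:104164148-104164397 (minus strand) and the second of 2 listed PDGFRA starts at chr4:54233710-54233959 (plus strand).
PDGFRB: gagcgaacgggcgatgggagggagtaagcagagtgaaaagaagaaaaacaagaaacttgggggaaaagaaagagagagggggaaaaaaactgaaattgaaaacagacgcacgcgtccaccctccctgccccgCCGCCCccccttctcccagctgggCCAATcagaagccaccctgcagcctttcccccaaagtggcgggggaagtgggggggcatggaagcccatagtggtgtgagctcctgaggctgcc
PDGFD: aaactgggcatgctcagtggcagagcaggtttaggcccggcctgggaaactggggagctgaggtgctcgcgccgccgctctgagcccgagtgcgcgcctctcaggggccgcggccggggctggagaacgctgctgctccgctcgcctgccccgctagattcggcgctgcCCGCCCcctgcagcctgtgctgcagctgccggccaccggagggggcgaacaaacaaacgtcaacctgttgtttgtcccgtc
PDGFRA: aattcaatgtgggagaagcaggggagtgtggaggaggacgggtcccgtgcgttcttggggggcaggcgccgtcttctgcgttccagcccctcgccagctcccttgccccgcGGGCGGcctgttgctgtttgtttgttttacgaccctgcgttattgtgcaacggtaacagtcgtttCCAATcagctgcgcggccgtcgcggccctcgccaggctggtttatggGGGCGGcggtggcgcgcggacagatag
The CCAAT box, a motif that the factor NF-Y can bind, began at position -94 from the start in PDGFRB and at -74 in PDGFRA. It was not among the letters of the PDGFD window. GGGCGG, a GC box that SP1 can bind (CCGCCC on the other strand), began at -118 in PDGFRB, at -81 in PDGFD and at -139 and -27 in PDGFRA. It began once more after the PDGFRB start, at 19. No match overlapped another in these windows. Of the 35116 promoter windows of 300 bases in the table, 34.6% held CCAAT and 45% held GGGCGG on either strand. TATAAA (11.5% of windows), CACGTG (7.26%), TGACTCA (4.95%) and TGACGTCA (1.85%) matched none of the 3 windows. The first listed PDGFRA start held none of the 6 motifs, so CCAAT and GGGCGG stood at 1 of its 2 starts.

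Depth was similar in the 4 libraries. The deposited expected counts (reads per gene as estimated by RSEM) summed to 31932304 and 32768728 in NIPBLmut and to 31545743 and 33161120 in NIPBLwt. Levels below are CPM, a gene's counts as a share of its library's total scaled by the trimmed mean of M values (TMM), where 1 count equals 0.0287 to 0.0335 CPM. The NIPBLmut pair was the closer one, with a chi-square per gene of 3.71 against 42.1 for the NIPBLwt pair, where about 1 is what sampling noise alone gives. Of 18984 tested genes, 704 were called higher and 399 lower in NIPBLmut at a Benjamini-Hochberg adjusted p under 0.05 in edgeR's quasi-likelihood test. All 9 markers of 293FT cells were tested and had counts in every library, with summed levels of 336 to 356 TPM (abundance per transcript length) in NIPBLmut and 393 to 418 TPM in NIPBLwt, and a median log2 fold change of -0.25. Of these, edgeR called KRT8 higher (0.83, adjusted p = 0.0295) and NEFM, LIN28B and VIM lower (-5.98, -1.20 and -0.60, adjusted p = 0.0086, 0.0369 and 0.0467). NEFM was called in all 16 alternative analyses (other scalings, filters, tools, scales, offsets, the replicate block and each library left out), KRT8 and LIN28B in 14 and VIM in 9.

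**Figure D1:**
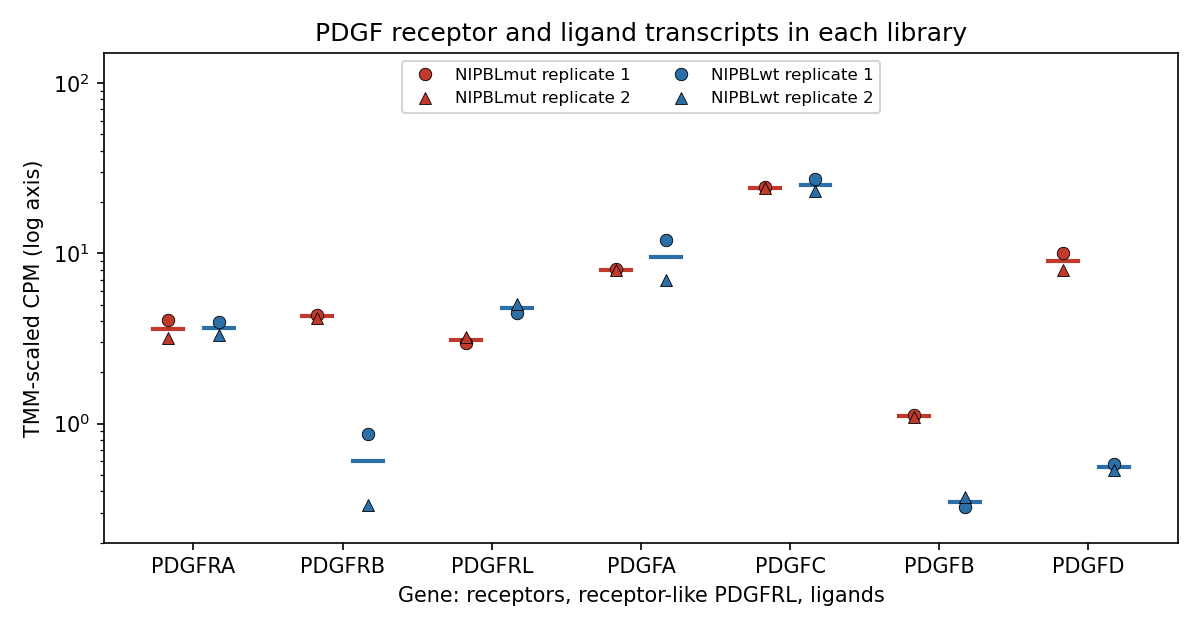
TMM-scaled CPM of the 7 genes in each library on a log axis. Circles are replicate 1, triangles replicate 2 and bars the mean of 2 libraries. PDGFRB, PDGFB and PDGFD were higher in both NIPBLmut libraries than in either NIPBLwt library and PDGFRL was lower, while PDGFRA, PDGFA and PDGFC overlapped. The groups did not overlap at 63.2% of all tested genes.

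PDGFRB and 2 ligands that act through it, PDGFD and PDGFB, lay higher in both NIPBLmut libraries than in either NIPBLwt library, where each was under 1 CPM. PDGFRA and the ligands that act mainly through it, PDGFA and PDGFC, had overlapping levels in the genotypes. PDGFRL lay lower in both NIPBLmut libraries than in either NIPBLwt library. PDGFB also acts through PDGFRA and was not called, and a split of the family by receptor was not tested. Of the 6 genes other than PDGFRB, 1 was called higher, PDGFD, and none lower, beside 5.81% of all tested genes called in either direction and 3.71% called higher. Since the family was picked on this comparison, nothing is read from that count. At 4 of the 7 genes, PDGFRB among them, the groups did not overlap, beside 63.2% of all tested genes. The median log2 fold change was -0.0073 over the 7 genes and -0.0055 over all tested genes.

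PDGFRB (ENSG00000113721, chromosome 5, 150113837 to 150155872, minus strand) encodes the beta receptor. It had 146 and 146 counts in the NIPBLmut libraries, against 27 and 10 counts in NIPBLwt replicates 1 and 2. Scaled, these were 4.32 and 4.19 CPM in NIPBLmut, against 0.87 and 0.335 CPM in NIPBLwt. Both NIPBLmut libraries lay above both NIPBLwt libraries, and the NIPBLwt libraries differed from each other by 1.38 on the log2 scale while the NIPBLmut pair differed by 0.042. The log2 fold change was 2.81 (SE 0.44, n = 2 each), a 7.0-fold difference. It was 3.64 without NIPBLwt replicate 1 and 2.28 without NIPBLwt replicate 2, so its size depended on which NIPBLwt library was kept. It was 2.19 when the deposited effective lengths entered as offsets. On the log2(TPM + 1) scale, which compresses low genes, it was 0.86. PDGFRB reached the filter minimum of 0.309 unscaled CPM in both NIPBLmut libraries and in 1 of the NIPBLwt libraries, so it passed the filter with its NIPBLmut level.

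PDGFRA (ENSG00000134853, chromosome 4, 54229097 to 54298247, plus strand) encodes the alpha receptor. Its levels were 4.05 and 3.16 CPM in NIPBLmut, against 3.93 and 3.31 CPM in NIPBLwt, so the NIPBLmut libraries lay on both sides of the NIPBLwt pair. The difference was -0.01 on the log2 scale (SE 0.25, edgeR adjusted p = 0.988), and positive with the stricter filter, total counts, upper-quartile scaling, the neighbourhood offset and without NIPBLmut replicate 2 or NIPBLwt replicate 1. AC058822.1, an annotated gene on the same strand that overlaps PDGFRA, had 0 and 0 counts in NIPBLmut against 7 and 5 in NIPBLwt, and how shared reads were divided was not checked. PDGFRL (ENSG00000104213, chromosome 8) encodes a protein with similarity to the receptors' outer part and no kinase domain. It had 2.99 and 3.22 CPM in NIPBLmut, against 4.48 and 5.05 CPM in NIPBLwt. Both NIPBLmut libraries lay below both NIPBLwt libraries, with a log2 fold change of -0.62 (SE 0.22) that was not called (edgeR adjusted p = 0.132). It was called only without NIPBLwt replicate 1 or 2 (adjusted p = 0.00125 and 0.0325), fits that take their spread from the close NIPBLmut pair alone, and its adjusted p ranged from 0.00125 to 0.72 over the alternatives. MTUS1 overlaps PDGFRL on the other strand and was itself called lower (-0.75, SE 0.14, edgeR adjusted p = 0.0449). The libraries were made with a strand-specific kit, but the strand setting of the counting is not given in the sources used here, so reads of the 2 genes may not have been told apart.

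PDGFD (ENSG00000170962, chromosome 11, 103907186 to 104164379, minus strand) encodes the latent ligand of the beta receptor. It had 339 and 278 counts in NIPBLmut, against 18 and 16 counts in NIPBLwt, or 10.03 and 7.99 CPM against 0.58 and 0.535 CPM. Both NIPBLmut libraries lay far above both NIPBLwt libraries, and the pairs were close within each genotype, with log2 gaps of 0.33 in NIPBLmut and 0.12 in NIPBLwt. PDGFD rose by 4.0 on the log2 scale (SE 0.27, edgeR adjusted p = 0.00903), a 16.0-fold difference, and 99 of the 18984 tested genes had a larger log2 fold change. It was called in all 16 alternatives, with log2 fold changes of 3.83 to 4.17 on counts, 3.48 on log2(TPM + 0.1) and 1.53 on log2(TPM + 1), and adjusted p-values from 2.82e-49 to 0.0255. It reached the filter minimum in all 4 libraries. The genes annotated inside or across PDGFD on the other strand, DDI1 and AP003043.1, had 0 counts in every library.

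PDGFB (ENSG00000100311, chromosome 22, 39223359 to 39244751, minus strand) encodes the ligand that binds both receptors and in kidney draws mesangial cells into the glomerulus. It had 38 and 38 counts in NIPBLmut, against 10 and 11 counts in NIPBLwt, or 1.12 and 1.09 CPM against 0.322 and 0.368 CPM. The groups did not overlap, and the log2 fold change of 1.67 (SE 0.35) missed the threshold (edgeR adjusted p = 0.0552). DESeq2 did not call it (adjusted p = 0.144), and over the 16 alternatives its adjusted p ranged from 0.00103 to 0.346. Among them it was called with total counts, with no filter, with the replicate number as a block and without either NIPBLwt library, while its adjusted p was 0.333 and 0.346 without NIPBLmut replicate 1 and 2. At 10 to 38 counts per library, PDGFB had the fewest reads of the 7 genes in NIPBLmut. For comparison, 8.07% of the 3928 tested genes under 1 CPM in NIPBLwt were called higher, and their median log2 fold change was 0.44. Genes this low can pass the filter through their NIPBLmut level, so that median is partly built in. PDGFB itself reached the filter minimum in all 4 libraries.

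PDGFC (ENSG00000145431, chromosome 4, 156760454 to 156971394, minus strand), the latent ligand of the alpha receptor, was the most abundant member. It had 24.4 and 24.1 CPM in NIPBLmut, against 27.3 and 23.1 CPM in NIPBLwt, with the NIPBLmut values between the NIPBLwt ones. It differed by -0.06 on the log2 scale (SE 0.13, edgeR adjusted p = 0.813), and by positive values with upper-quartile scaling, total counts, TPM and without NIPBLwt replicate 1. PDGFA (ENSG00000197461, chromosome 7, 497258 to 520296, minus strand) had 8.11 and 7.93 CPM in NIPBLmut, against 11.9 and 6.99 CPM in NIPBLwt. The NIPBLwt libraries lay on both sides of the NIPBLmut pair. PDGFA differed by -0.24 on the log2 scale (SE 0.28, edgeR adjusted p = 0.606), with 0.18 without NIPBLwt replicate 1 and -0.57 without replicate 2, where it was called (adjusted p = 0.000216; range over the alternatives 0.000216 to 0.993).

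**Figure D2:**
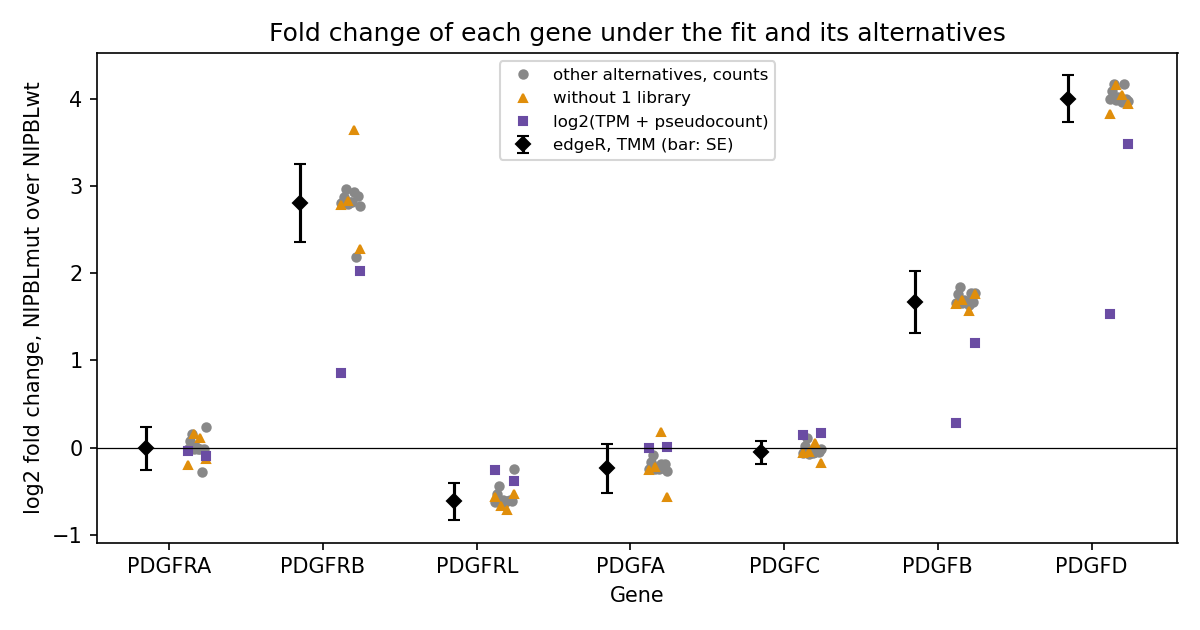
Log2 fold change of NIPBLmut over NIPBLwt for each gene. Black diamonds are the edgeR fit with TMM scaling and their bars the SE; other points are the 16 alternatives. PDGFD stayed between 3.83 and 4.17 on counts, PDGFRB moved between 2.28 and 3.64 when 1 NIPBLwt library was left out, and PDGFRA, PDGFA and PDGFC lay on both sides of 0.

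Levels of different genes were compared per length, as TPM. In NIPBLmut the order of mean TPM was PDGFC, PDGFA, PDGFD, PDGFRL, PDGFRB, PDGFRA and PDGFB. In NIPBLwt it was PDGFC, PDGFA, PDGFRL, PDGFRA, PDGFRB, PDGFD and PDGFB. No neighbours in either order overlapped over the 2 libraries of a genotype. PDGFC had 8.83 and 9.01 TPM in NIPBLmut, against 9.02 and 6.98 TPM in NIPBLwt, close to the median tested protein-coding gene, which was at 9.44 and 9.42 TPM in NIPBLmut and at 8.46 and 8.145 TPM in NIPBLwt. All other members lay under that median in all 4 libraries.

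The make-up of the ligand pool differed mainly in PDGFD. The 4 ligands summed to 15 and 14.4 TPM in NIPBLmut, against 13.5 and 9.6 TPM in NIPBLwt. PDGFD made up 16.5% and 13.4% of that sum in NIPBLmut, against 0.814% and 1.04% in NIPBLwt. PDGFB made up 2.33% and 1.95% in NIPBLmut, against 0.518% and 0.938% in NIPBLwt. PDGFC remained the main ligand transcript in every library, at 58.9% and 62.7% in NIPBLmut against 66.8% and 72.7% in NIPBLwt.

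The order of the receptors also differed. PDGFRB had 1.33 and 1.12 TPM in NIPBLmut, against 0.29 and 0.17 TPM in NIPBLwt. PDGFRA had 0.97 and 0.51 TPM in NIPBLmut, against 0.89 and 0.66 TPM in NIPBLwt. PDGFRB was thus 57.8% and 68.7% of the receptor kinase TPM in NIPBLmut, against 24.6% and 20.5% in NIPBLwt, and lay above PDGFRA in both NIPBLmut libraries and below it in both NIPBLwt libraries. These shares were not tested, since they contain the PDGFRB values that the family was picked on.

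**Figure D3:**
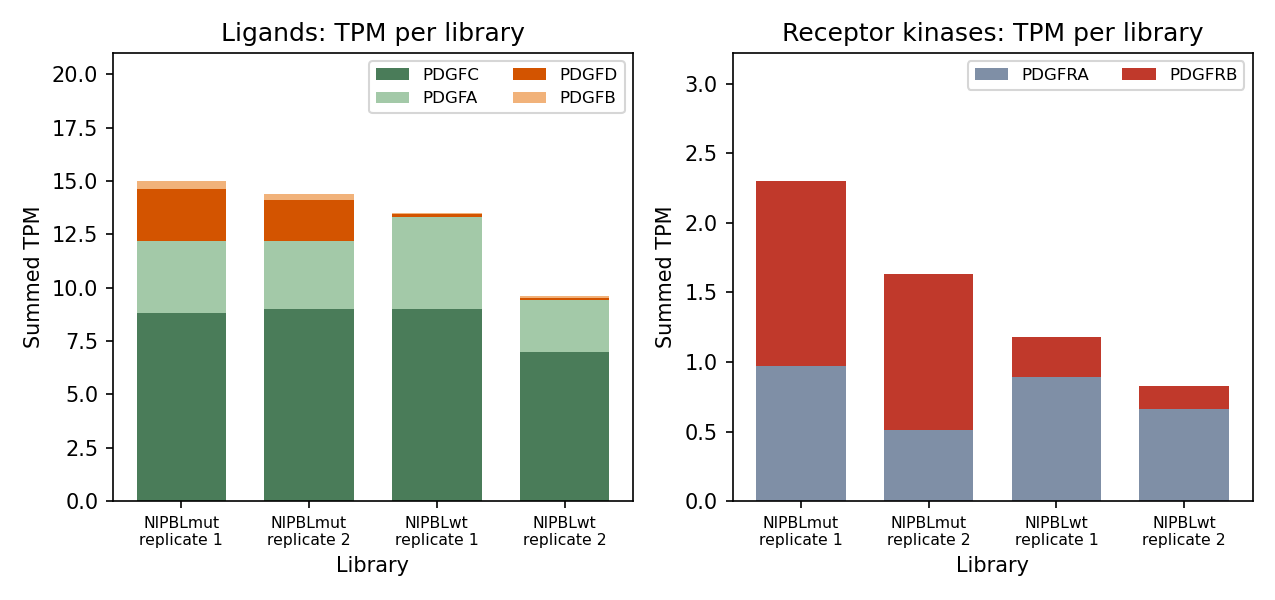
Summed TPM of the 4 ligands (left) and the 2 receptor kinases (right) in each library, stacked by gene. PDGFD was 16.5% and 13.4% of ligand TPM in NIPBLmut and about 1% in NIPBLwt, and PDGFRB was 57.8% and 68.7% of receptor TPM in NIPBLmut against 24.6% and 20.5% in NIPBLwt.

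The receptor TPM values rest on effective lengths that RSEM weights by the isoforms it assigns, and these moved between libraries. For PDGFRB, with 11 annotated transcripts of 296 to 5717 bases, the effective length was 2813 and 3247 bases in NIPBLmut, against 2353 and 1440 bases in NIPBLwt. For PDGFRA, with 10 transcripts of 480 to 6576 bases, it was 3644 and 5428 bases in NIPBLmut, against 3432 and 3715 bases in NIPBLwt. PDGFRB was longer in both NIPBLmut libraries, from 10 to 146 counts per library, and PDGFRA stood apart in NIPBLmut replicate 2 alone. The PDGFD effective length was 3519 and 3612 bases in NIPBLmut and 3987 bases in both NIPBLwt libraries, which had 18 and 16 counts. The lengths of PDGFA and PDGFC varied by less, between 2109 and 2176 bases and between 2330 and 2454 bases over the 4 libraries. Counts of 1 gene compare between libraries without a length only where that length is alike, which it was not for PDGFRB, PDGFRA and PDGFD. With effective lengths as offsets their log2 fold changes were 2.19, -0.28 and 4.17, against 2.81, -0.01 and 4.0 without. Counts do not order different genes by level. PDGFRB had 146 and 146 counts in NIPBLmut against 27 and 10 in NIPBLwt. PDGFRA had 137 and 110 counts in NIPBLmut against 122 and 99 in NIPBLwt.

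Each member was next set beside its chromosomal neighbours, the 10 nearest tested protein-coding genes in each direction, or 11 in all for PDGFA near the chromosome end. The neighbours of PDGFRB had a median log2 fold change of 0.12. Of these 20, 2 were called higher and none lower, beside 3.71% of all tested genes higher and 2.1% lower. The nearest tested ones were HMGXB3 at -0.20 (SE 0.19) and ARSI at 1.22 (SE 0.51), neither called by edgeR (adjusted p = 0.525 and 0.186). CD74, the invariant chain of class II antigen presentation, had 4.21 (SE 0.56, edgeR adjusted p = 0.0295). It was the only one of the 20 with a log2 fold change above that of PDGFRB. Its mean was 1.58 CPM in NIPBLmut against 0.082 CPM in NIPBLwt, so it passed the filter with its NIPBLmut level. ABLIM3 had 2.72 (SE 0.32, adjusted p = 0.0273), with means of 2.29 CPM in NIPBLmut and 0.345 CPM in NIPBLwt. Both were named after their values were seen. CSF1R, the related receptor that adjoins PDGFRB, failed the filter with 2 and 8 counts in NIPBLmut against 0 and 0 in NIPBLwt. It was likewise named after its values were seen.

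The counts of called neighbours around the other members stand beside the same shares, 3.71% of all tested genes higher and 2.1% lower. Around PDGFD the neighbours' median was 0.08, with 4 of 20 called higher and none above PDGFD itself. Around PDGFB it was 0.18, with 1 called higher. Around PDGFRA it was -0.24, with 2 called lower, and the nearest genes CHIC2 and KIT had 0.02 (SE 0.15) and -0.24 (SE 0.20), neither called by edgeR (adjusted p = 0.925 and 0.467). Around PDGFC the median was 0.24, with 3 higher and 1 lower, and the nearest genes CTSO and GLRB had 0.86 (SE 0.50) and 0.46 (SE 0.16), neither called (adjusted p = 0.306 and 0.141). Around PDGFA it was 0.09 with no calls. The neighbours of PDGFRL had the lowest median, -0.42, with 4 lower and 1 higher, and 14 of 20 lay above PDGFRL. With 25 genes on each side the neighbours' median was -0.04 around PDGFC and -0.10 around PDGFB, so its sign turned with the window for these genes. With the median of 25 genes on each side taken out, PDGFRL had -0.24, PDGFRB 2.78, PDGFB 1.78 and PDGFD 3.97. Some neighbours called higher passed the filter with their NIPBLmut level. They include PGR and TRPC6 around PDGFD, with means of 0.18 and 0.23 CPM in NIPBLwt. APOBEC3H around PDGFB (0.13 CPM) and FGG around PDGFC (0.049 CPM) were others. All were named after their values were seen.

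**Figure D4:**
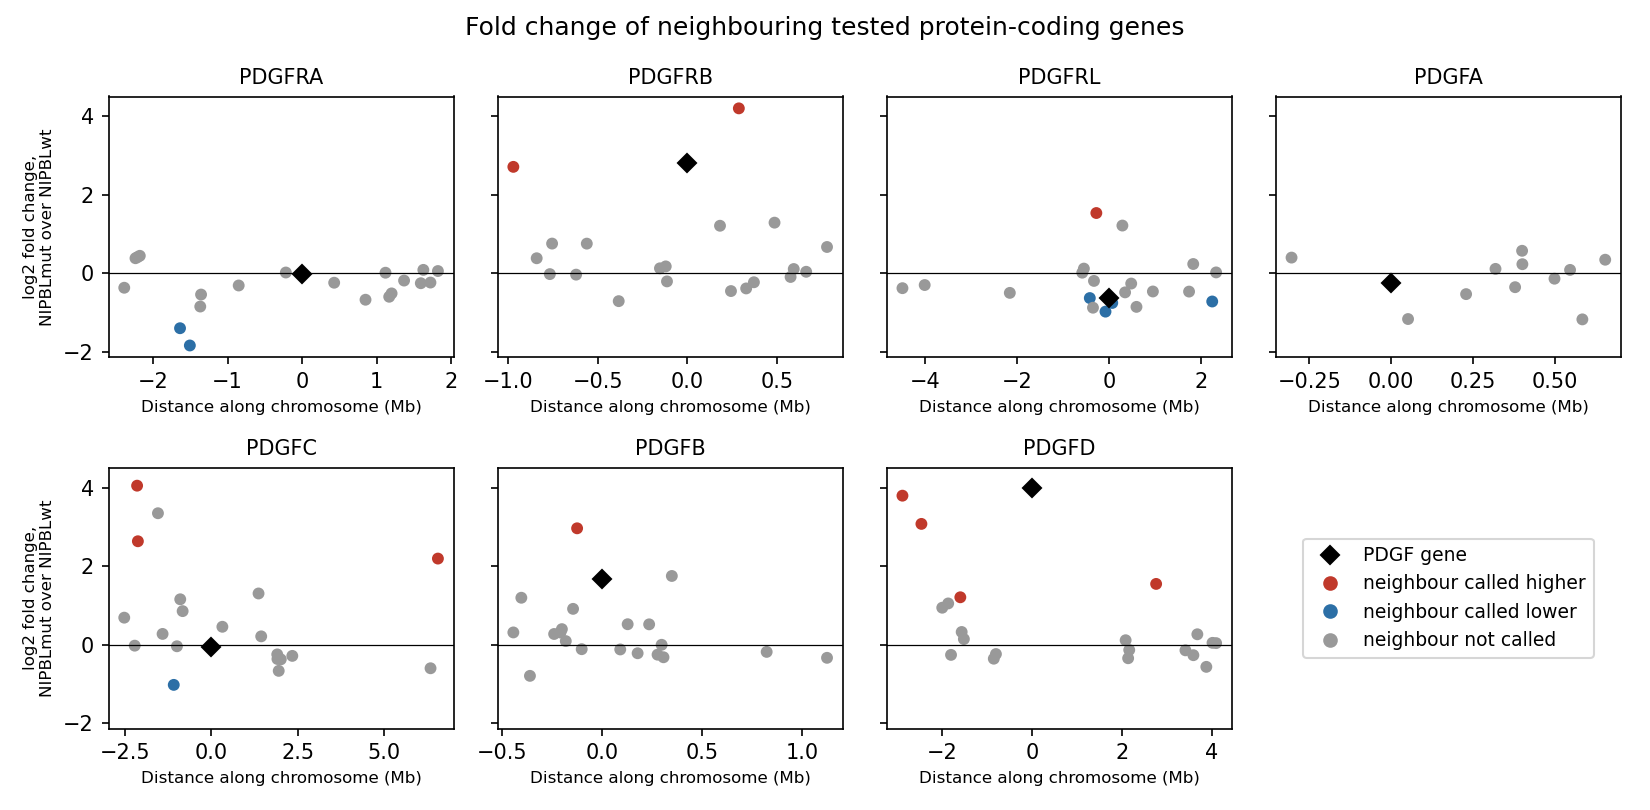
Log2 fold change of the tested protein-coding neighbours of each gene against their distance in Mb. Black diamonds are the PDGF genes at distance 0, and colours mark neighbours called higher or lower. PDGFRB, PDGFB and PDGFD stood above the medians of their neighbours, 0.12, 0.18 and 0.08, while PDGFRL at -0.62 lay near its own, -0.42.

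The tested protein-coding genes whose profile over the 4 libraries was nearest to that of PDGFRB, by Euclidean distance of gene-centred log2(CPM + 0.5), were COL16A1 (distance 0.113), RYR1 (0.127), ERBB4 (0.127), ALDH1A1 (0.138) and PLCB2 (0.144). Each was high in both NIPBLmut libraries and lower in NIPBLwt replicate 2 than in replicate 1. That pattern follows from picking them for likeness to PDGFRB, so nothing is read from it. COL16A1, a collagen gene, had 3.31 and 3.36 CPM in NIPBLmut, against 0.709 and 0.201 CPM in NIPBLwt. The receptor kinase gene ERBB4 had 9.82 and 8.93 CPM in NIPBLmut, against 2.1 and 1.2 CPM in NIPBLwt. Of the other members PDGFD was nearest to PDGFRB, at 1.12, then PDGFB at 1.35, and PDGFRL was farthest, at 2.77. These distances rest on the PDGFRB values that the family was picked on and were not tested.

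Beyond the family, 6 lists of 76 related genes were examined, chosen with earlier results of these data known. Of the 72 tested, 3 were called higher and 1 lower, beside 3.71% of all tested genes higher and 2.1% lower, and 27 of the 72 had an unadjusted p under 0.05, beside 29.8% of all tested genes (5653 of 18984). Their median log2 fold change was -0.06, against -0.01 over all tested genes. Without NIPBLmut replicate 1 or 2, where the spread comes from the wider NIPBLwt pair alone, none of the 72 was called higher or lower.

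Among the 7 proteases that release or mature PDGF ligands 1 was called, PLAT, the tissue plasminogen activator that cuts latent PDGFC. PLAT had 21.3 and 20.0 CPM in NIPBLmut, against 45.3 and 35.9 CPM in NIPBLwt, and fell by 0.97 on the log2 scale (SE 0.15, edgeR adjusted p = 0.0368). It was not called in 7 of 16 alternatives, among them upper-quartile scaling, total counts, TPM, the neighbourhood offset and without NIPBLmut replicate 1 or 2, with adjusted p-values up to 0.119. PLAU and ST14, which can cut latent PDGFD, had log2 fold changes of 1.13 (SE 0.31) and 1.62 (SE 0.62) and were not called (edgeR adjusted p = 0.0849 and 0.156). ST14 had 17 and 18 counts in NIPBLmut against 8 and 2 in NIPBLwt, and passed the filter with its NIPBLmut level. PLAU and ST14 were named after their values were seen. The list median was 0.34, and 6 of the 7 proteases had an unadjusted p under 0.05, beside 29.8% of all tested genes.

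Of 33 tested adaptors and kinases that the receptors signal through, 2 were called higher and none lower, with a median of -0.04. An unadjusted p under 0.05 was found for 10 of the 33, beside 29.8% of all tested genes. PIK3CA, a catalytic subunit of PI3 kinase, had 46.2 and 45.3 CPM in NIPBLmut, against 26.6 and 30.7 CPM in NIPBLwt, a log2 fold change of 0.68 (SE 0.12, edgeR adjusted p = 0.0444). STAT5B, a transcription factor phosphorylated below cytokine and growth factor receptors, had 79.8 and 88.4 CPM in NIPBLmut, against 54.4 and 49.2 CPM in NIPBLwt, a log2 fold change of 0.70 (SE 0.12, edgeR adjusted p = 0.0416). PIK3CA lost its call in 4 of 16 alternatives (adjusted p up to 0.279) and STAT5B in 6 (up to 0.37), both with effective length offsets, the neighbourhood offset and without NIPBLmut replicate 1 or 2. Of the 11 co-factors and negative regulators none was called by edgeR and none had an unadjusted p under 0.05. The phosphatase genes PTPRJ, with the smallest p among those higher, and PTPN2, with the smallest among those lower, had 0.32 (SE 0.13) and -0.26 (SE 0.14), with adjusted p-values of 0.182 and 0.262.

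Of the other receptor kinases of PDGF type and their ligands, 5 of 7 were tested and none was called by edgeR, with 2 at an unadjusted p under 0.05 (29.8% of all tested genes). FLT3 had 3.37 and 3.1 CPM in NIPBLmut, against 2.16 and 1.31 CPM in NIPBLwt (0.90, SE 0.32, adjusted p = 0.14). CSF1, the ligand of CSF1R, had 2.4 and 2.44 CPM in NIPBLmut, against 3.9 and 4.28 CPM in NIPBLwt (-0.76, SE 0.22, adjusted p = 0.0993). In the related VEGF family, whose ligands share the cystine knot fold of PDGF, 9 of 10 were tested and VEGFC alone was called. VEGFC, a growth factor for lymphatic vessels, had 2.49 and 2.82 CPM in NIPBLmut, against 0.838 and 0.77 CPM in NIPBLwt, a log2 fold change of 1.72 (SE 0.28, edgeR adjusted p = 0.0381). It lost its call without NIPBLmut replicate 1 or 2 (adjusted p = 0.128 and 0.232; range over the alternatives 2.52e-07 to 0.232). The median of the VEGF family was -0.43, and 5 of the 9 had an unadjusted p under 0.05 (29.8% of all tested genes). Of 7 promoter factors, among them those of the CCAAT and GC boxes, none was called by edgeR, and 4 had an unadjusted p under 0.05 (29.8% of all tested genes). SP3 had -0.55 (SE 0.12, adjusted p = 0.0576) and the NF-Y subunit NFYB 0.36 (SE 0.12, adjusted p = 0.115). The other NF-Y subunits went the other way, NFYA at -0.40 (SE 0.14, adjusted p = 0.136) and NFYC at -0.28 (SE 0.12, adjusted p = 0.172). NFYA and NFYC were named after their values were seen.

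**Figure D5:**
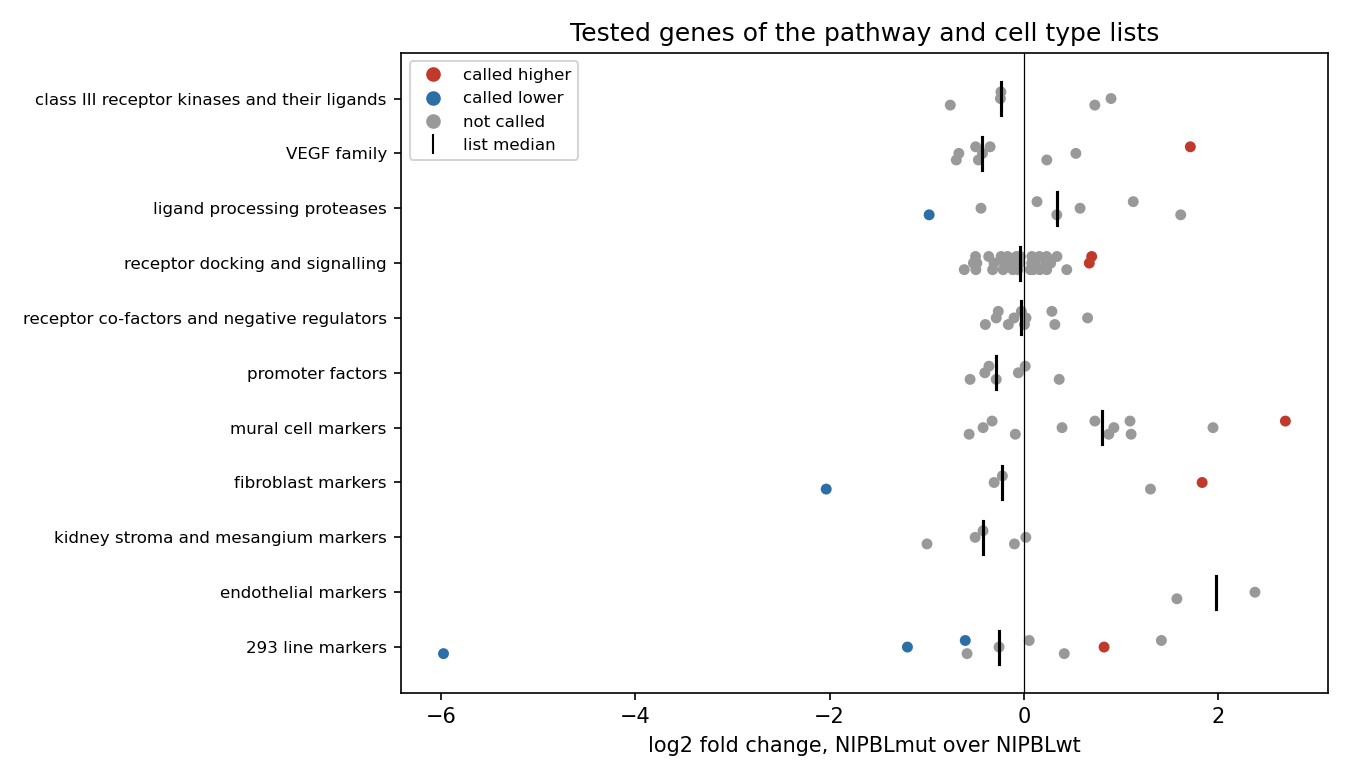
Log2 fold change of the tested genes in each list, 1 point per gene, with red for called higher, blue for called lower, grey for not called and a bar at the list median. Most signalling genes lie near 0, with medians from -0.43 to 0.34 in the 6 signalling and related lists.

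Markers of mural cells, fibroblasts, kidney stroma and mesangium, and endothelial cells were set beside PDGFRB. Of 14 mural cell markers 12 were tested, 1 was called higher and none lower, beside 3.71% of all tested genes higher and 2.1% lower. The summed level of the list was 41.1 to 42.2 TPM in NIPBLmut against 32.7 to 35.8 TPM in NIPBLwt. MYH11, smooth muscle myosin heavy chain, had 2.69 and 3.1 CPM in NIPBLmut, against 0.355 and 0.535 CPM in NIPBLwt (2.7, SE 0.34, edgeR adjusted p = 0.0289), and was not called on TPM at either pseudocount (adjusted p up to 0.0584). The mural list had a median of 0.80, and its markers HIGD1B and CD248 had no counts in any library. Of the 12 tested, 5 had an unadjusted p under 0.05, beside 29.8% of all tested genes. TAGLN, NOTCH3, KCNJ8 and MCAM had negative log2 fold changes (-0.56, -0.42, -0.33 and -0.09), none called, and the other tested markers had positive ones. ANPEP had 6 and 6 counts in NIPBLwt, CNN1 21 and 10, and DES 33 and 10. ANPEP, CNN1 and DES passed the filter with their NIPBLmut level, which can raise the median. Their log2 fold changes were 0.93, 1.95 and 1.11, none called. These markers were named after their values were seen. Of 10 fibroblast markers 5 were tested, with LUM higher (1.84, SE 0.28) and COL3A1 lower (-2.04, SE 0.38) by edgeR (adjusted p = 0.0354 and 0.0452). Beside these calls stand the same shares, 3.71% of all tested genes higher and 2.1% lower. LUM was not called without NIPBLmut replicate 1 or 2 (adjusted p = 0.0741 and 0.0755), and COL3A1 was not called in 8 of 16 alternatives, among them without NIPBLmut replicate 1 (adjusted p up to 0.0909). The fibroblast median was -0.22 and the sum 27.03 to 28.9 TPM in NIPBLmut against 25.1 to 27.7 TPM in NIPBLwt. Of the 5 tested, 3 had an unadjusted p under 0.05 (29.8% of all tested genes). COL1A2, FAP and DPT had no counts in any library, and THY1 had at most 1.

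Of 7 kidney stroma and mesangium markers 5 were tested and none was called by edgeR, with 2 at an unadjusted p under 0.05 (29.8% of all tested genes). The median was -0.42 and the sum 33.2 to 37.3 TPM in NIPBLmut against 32.9 to 37.4 TPM in NIPBLwt. ITGA8, an integrin of mesangial cells, had -0.997 (SE 0.31, adjusted p = 0.108), and TBX18 had 0.02 (SE 0.12, adjusted p = 0.922). Of 6 endothelial markers 2 were tested, TEK and VWF. TEK had 1.58 (SE 0.32, edgeR adjusted p = 0.0526) and VWF 2.38 (SE 0.61, adjusted p = 0.0774). VWF had 54 and 23 counts in NIPBLmut against 8 and 5 in NIPBLwt, and passed the filter with its NIPBLmut level. The list median of 1.98 rests on these 2 genes and is partly built in. The sum over the list was 0.72 to 1.32 TPM in NIPBLmut against 0.29 to 0.42 TPM in NIPBLwt. The part of such cell states in the PDGFRB level was not tested. In bulk samples more cells with a transcript and more transcript per cell cannot be told apart.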

How the data were processed

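The data were 4 RNA-seq libraries of 293FT cells, 2 labelled NIPBLmut and 2 NIPBLwt. Per the labels' protocols, ribosomal RNA was removed and a directional kit was used. The submitters' processing notes name STAR (2.7.3a), RSEM (1.3.1) and hg38. The sources used here give neither annotation release nor strand setting. Per the file headers, the authors deposited expected counts, TPM (abundance per effective length, scaled to a fixed total) and effective lengths per gene, 1 table per library.

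From these, 57836 of 58174 identifiers matched GENCODE 29 (GRCh38). Expected counts were rounded and tested with edgeR 4.0.16 (R 4.3.3): filterByExpr (minimum count 10), TMM scaling, robust quasi-likelihood test, Benjamini-Hochberg over 18984 genes, called under 0.05. The test was checked on simulated data. SE is the log2 fold change over the root of F. Alternatives used DESeq2 1.42.0 and limma 3.58.1, among others.

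The members and lists were chosen with earlier results of these data known. Named were all members, each list's called genes (at most 4 a direction) or else its smallest p in each direction, the nearest neighbours of PDGFRB, PDGFRA and PDGFC, and the 5 genes nearest to PDGFRB. Promoters came from RefSeq for PDGFRA, PDGFRB, PDGFA and PDGFD. PDGFB, PDGFC and PDGFRL promoters were not used here.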

Additional observations from a re-analysis of the deposited data

How the results depend on the processing

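The 16 alternatives were RLE, upper-quartile and total-count scaling, no filter, a filter of 1 CPM in 2 libraries, DESeq2, limma-voom, limma-trend on log2(TPM + 1) and log2(TPM + 0.1), effective length offsets, the replicate block, a neighbourhood offset and leaving out each library. PDGFD kept its direction and call in all 16. PDGFRB kept its direction in all 16, at 0.86 on log2(TPM + 1) and between 2.28 and 3.64 with 1 library left out. PDGFB became called with total counts (1.84), no filter (1.66) and the replicate block (1.67), and ranged from 1.56 to 1.77 with 1 library left out. PDGFRL ranged from -0.72 to -0.53, PDGFA from -0.57 to 0.18, PDGFC from -0.175 to 0.057 and PDGFRA from -0.20 to 0.16 in those fits. The uncalled PDGFC changed sign with upper-quartile scaling (0.023), total counts (0.11) and TPM (0.15 and 0.17). PDGFRA changed sign with upper-quartile scaling (0.072), total counts (0.16), the 1 CPM filter (0.0085) and the neighbourhood offset (0.24), and PDGFA with log2(TPM + 0.1) (0.0059). Total counts moved the median of all tested genes to 0.17 and log2(TPM + 1) moved it to 0.12.

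Genes called higher numbered 1112 with total counts, 1132 with no filter, 1230 with DESeq2, 1470 with the replicate block and 443 with the neighbourhood offset, and 335 to 5909 with 1 library left out. Genes called lower numbered 786 with no filter, 1116 with DESeq2, 119 and 110 on TPM, 809 with the replicate block and 167 with the neighbourhood offset, and 64 to 5931 with 1 library left out. Of the related genes, 1 was higher with effective length offsets and 1 with the neighbourhood offset, and 0 to 21 with 1 library left out. None was lower with upper-quartile scaling, total counts, either TPM scale or the neighbourhood offset (0 in each), 3 with no filter, 5 with DESeq2, 2 with the replicate block and 0 to 33 with 1 library left out. Fits without a NIPBLwt library take their spread from the close NIPBLmut pair alone, and those without a NIPBLmut library from the wider NIPBLwt pair alone. The labels share replicate numbers, but same-numbered libraries did not deviate together (correlation -0.09 across genes), so the numbers were not treated as pairs. PDGFB, at 10 to 38 counts, and PDGFRB and PDGFD in NIPBLwt, at 10 to 27, are limited by depth.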
